A study of Mus musculus with 12 samples.

Results

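Nr1d1, Dbp, Tef, Cry1 and Nfil3 are core output and feedback genes of the circadian clock, and their messenger RNA levels were examined in mouse skin. The 5 genes were chosen by symbol, as 3 genes whose transcripts run early in the clock's daily cycle (Nr1d1, Dbp, Tef) and 2 whose transcripts run later (Cry1, Nfil3). All 5 were found among the 7902 genes of the tables, and all 5 passed the filter on low counts that left 7638 genes for testing. Total RNA from whole skin was sequenced as messenger RNA libraries in 3 groups of 4. Ctrl was control skin. Model was skin aged by D-galactose, a sugar whose excess causes oxidative stress and protein glycation, together with ultraviolet light of the A and B bands (UVA/B). M+NSPCC1 carried the same D-galactose and UVA/B model and received NSPCC1, a grape seed extract, so Model and M+NSPCC1 share the ageing treatment and Ctrl lacks it. No genetic change is named for any group. The sources used here do not give the strain, age, sex, doses, duration, body site or hour of tissue collection. Nothing in the labels says that each library is a separate animal, and the p-values cover only how these samples scatter, which may be technical.

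The clock is a feedback loop in which the activators CLOCK (or its relative NPAS2) and BMAL1 bind DNA elements called E-boxes and switch on their own repressors, among them CRY1, and output genes such as Nr1d1, Dbp and Tef. DBP and TEF are sister transcription factors that activate genes through another element, the D-box, and NFIL3 (also called E4BP4) is a repressor that competes for the same element. NR1D1 (REV-ERB alpha) is a nuclear receptor that represses genes carrying its response element (RORE), and Nfil3 and Cry1 are among its known targets. In tissues with a running clock, Nr1d1, Dbp and Tef transcripts therefore peak before those of Nfil3 and Cry1. A high ratio of the first to the second then goes with hours nearer the earlier peak. Skin has such a clock in the epidermis, dermis, fat, muscle layer and hair follicle, and in the follicle clock genes are also known to vary with the hair growth cycle.

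The summed counts of the tables ran from 9717338 to 10952623 per library, and the tables cover part of each library. The Ctrl libraries stood apart from the others across the tables: with Benjamini-Hochberg adjustment, edgeR's quasi-likelihood test called 90.5% of genes in Model against Ctrl and 93.2% in M+NSPCC1 against Ctrl, against 0% in M+NSPCC1 against Model. Summed shares of cell type markers differed along the same line. Skeletal muscle markers (19 of 19 genes in the tables) took 9.25% to 9.74% of the summed count in Ctrl, 0.537% to 1.94% in Model and 1.37% to 2.17% in M+NSPCC1. Hair shaft and inner root sheath markers (19 of 20) took 0.00138% to 0.0332% in Ctrl, 5.08% to 7.71% in Model and 3.68% to 6.38% in M+NSPCC1. The keratinocyte markers in the tables (Krt5, Krt10 and Flg, 3 of 8 listed) were present at overlapping shares, 0.617% to 0.841% in Ctrl, 0.448% to 0.878% in Model and 0.491% to 0.811% in M+NSPCC1. Fewer cells of a type and less RNA per cell cannot be told apart in such bulk samples, and treatment, tissue make-up and any difference in collection hour between Ctrl and the other groups cannot be told apart either.

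Sequences before a listed RefSeq start, not always a gene's outermost start, were read for the clock's own elements. Promoter windows of 250 bases before the RefSeq transcription start (build GRCm38.p6, the reference of mm10) were searched on both strands for the E-box (CACGTG, present in 6.02% of 32817 promoters), the E'-box, a variant (CACGTT, 3.85%), the D-box (TTATGTAA or TTACGTAA, 0.929%) and the RORE (TAGGTCA or TGGGTCA, 5.39%). The 3 stretches shown here are those with an E-box or E'-box outside annotated exons, written 5′ to 3′ on the gene's own strand with the element in capitals.
Nr1d1, chr11:98775378-98775627, minus strand: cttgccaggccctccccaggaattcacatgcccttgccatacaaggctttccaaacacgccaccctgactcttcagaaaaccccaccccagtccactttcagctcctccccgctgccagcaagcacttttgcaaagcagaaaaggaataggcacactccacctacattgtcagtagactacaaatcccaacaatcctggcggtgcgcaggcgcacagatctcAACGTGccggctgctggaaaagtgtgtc
Tef, second start, chr15:81811164-81811413, plus strand: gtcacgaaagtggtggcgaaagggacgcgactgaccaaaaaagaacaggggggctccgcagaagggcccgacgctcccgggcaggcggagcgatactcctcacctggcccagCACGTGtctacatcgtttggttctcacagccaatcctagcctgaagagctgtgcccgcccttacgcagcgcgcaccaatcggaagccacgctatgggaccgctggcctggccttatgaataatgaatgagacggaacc
Cry1, chr10:85185065-85185304, minus strand: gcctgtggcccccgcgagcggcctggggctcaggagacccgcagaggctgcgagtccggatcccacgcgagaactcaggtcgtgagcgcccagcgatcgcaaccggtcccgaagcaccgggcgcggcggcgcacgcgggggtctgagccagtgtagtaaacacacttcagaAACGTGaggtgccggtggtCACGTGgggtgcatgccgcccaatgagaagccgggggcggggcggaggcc
Nr1d1 had an E'-box, read as AACGTG on its strand, at 28 to 23 bases before the start. The window before the second Tef start had an E-box at 138 to 133 bases, and the window before the first Tef start had another at 127 to 122 bases, inside an annotated exon. Cry1 had both, an E'-box at 79 to 74 bases and an E-box at 60 to 55 bases. The Nfil3 window held a RORE, read as TGACCTA on its strand, at 12 to 6 bases before the listed start, inside an annotated exon, and no E-box or D-box. No match to any of these letters was found in the Dbp window. The Nfil3 window (chromosome 13, 52981040 to 52981289) lies wholly within the gene span given below. The Dbp window (chromosome 7, 45704997 to 45705246) lies partly within its gene span. The sequence before the outermost start was therefore not searched for Nfil3, and only in part for Dbp. A match is a description of the letters and not evidence of binding, and these windows leave out more distant elements.

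Model was set against Ctrl to see how skin given the ageing treatment differed from control skin. The early genes Nr1d1, Dbp and Tef fell, by 6.06-fold, 4.08-fold and 2.79-fold, and the later genes Cry1 and Nfil3 rose, by 2.06-fold and 2.67-fold. All 5 genes passed the test, 3 lower and 2 higher. The background was high, with 41.4% of the 7638 genes called lower, 49.1% called higher and 90.5% called in all, so the number of calls is not a result about these genes. Levels are given as CPM, each gene's share of the library's count on a common scale, adjusted with edgeR's TMM factors, and fold changes are edgeR estimates from the same counts.

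Nr1d1 encodes the nuclear receptor REV-ERB alpha (chromosome 11, 98767932 to 98775377). It measured 451, 510, 385 and 506 CPM in Ctrl libraries 1 to 4, 83.05, 49.0, 107 and 66.2 CPM in Model, and 85.0, 75.3, 50.01 and 63.7 CPM in M+NSPCC1. Every Ctrl library lay far above every other library, and Model and M+NSPCC1 overlapped. The log2 fold change in Model against Ctrl was -2.60 (SE 0.24, Benjamini-Hochberg adjusted p = 1.63e-06, quasi-likelihood test of edgeR). The gene shares 1075 bases with Thra, the thyroid hormone receptor alpha gene on the opposite strand, and the sources used here do not say whether counting used strand. Thra fell too, by 0.57 on the log2 scale (adjusted p = 6.7e-05, same edgeR test), from 94.8 ± 6.42 to 64.0 ± 6.36 CPM (SD, n = 4).

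Dbp encodes the D-box activator DBP (chromosome 7, 45705100 to 45710203). Its levels were 301, 375, 175 and 287 CPM in Ctrl, 64.4, 40.7, 113 and 61.7 CPM in Model, and 52.9, 107, 71.2 and 70.7 CPM in M+NSPCC1. Ctrl 3 was the lowest control and Model 3 the highest Model library, and those libraries narrowed the gap between the groups without closing it. The log2 fold change in Model against Ctrl was -2.03 (SE 0.33, Benjamini-Hochberg adjusted p = 0.000127, quasi-likelihood test of edgeR). Dbp overlaps 741 bases of Sphk2 on the opposite strand, which was not analysed here. The tables list 3 Dbp transcripts, numbered here from the longest. The second held 73.9% of the gene's FPKM (fragments per kilobase of transcript, scaled to library size) in Ctrl, 74.7% in Model and 78.5% in M+NSPCC1. All 3 fell in Model against Ctrl when transcripts were tested in place of genes, with log2 fold changes of -2.58, -1.97 and -1.73.

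Tef encodes the sister activator TEF (chromosome 15, 81802673 to 81826863). It measured 101, 198, 119 and 173 CPM in Ctrl, 37.7, 27.0, 77.2 and 69.5 CPM in Model, and 35.7, 71.5, 72.0 and 62.8 CPM in M+NSPCC1. Neither treated group overlapped Ctrl, but the gap was the narrowest of the 3 early genes, from 77.2 CPM in Model 3 to 101 CPM in Ctrl 1. The log2 fold change was -1.48 (SE 0.35, Benjamini-Hochberg adjusted p = 0.00194, quasi-likelihood test of edgeR). Of its 2 listed transcripts the shorter held 81.9% of the gene's FPKM in Ctrl and 82.6% in Model. Both fell in Model against Ctrl, with log2 fold changes of -1.57 for the longer and -1.42 for the shorter.

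Cry1 encodes the repressor CRY1, which shuts off CLOCK and BMAL1 (chromosome 10, 85131700 to 85185054). Its levels were 18.6, 24.0, 21.5 and 26.8 CPM in Ctrl, 48.8, 46.2, 43.6 and 48.8 CPM in Model, and 50.9, 45.4, 48.6 and 42.9 CPM in M+NSPCC1. Every library of both treated groups lay above every control, within a narrow band. The log2 fold change in Model against Ctrl was 1.05 (SE 0.11, Benjamini-Hochberg adjusted p = 6.99e-06, quasi-likelihood test of edgeR). Cry1 varied little within the treated groups, with a coefficient of variation of 5.35% in Model and 7.47% in M+NSPCC1, where the median over 6275 genes of at least 10 CPM was 16.6% and 10.1%.

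Nfil3 encodes the D-box repressor that competes with DBP and TEF (chromosome 13, 52967209 to 52982878). It measured 24.1, 30.2, 46.4 and 39.6 CPM in Ctrl, 110.3, 94.0, 81.2 and 89.8 CPM in Model, and 83.1, 80.2, 80.4 and 72.0 CPM in M+NSPCC1. The highest control, Ctrl 3, was the library with the lowest Dbp and Nr1d1 of its group, and the lowest Model library, Model 3, was the one with the highest Dbp, Nr1d1 and Tef. The log2 fold change was 1.42 (SE 0.18, Benjamini-Hochberg adjusted p = 1.78e-05, quasi-likelihood test of edgeR). Model and Ctrl did not overlap for any of the 5 genes, 3 lower and 2 higher in Model, where 83.1% of tested genes did not overlap (39.8% lower and 43.2% higher).

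**Figure D1:**
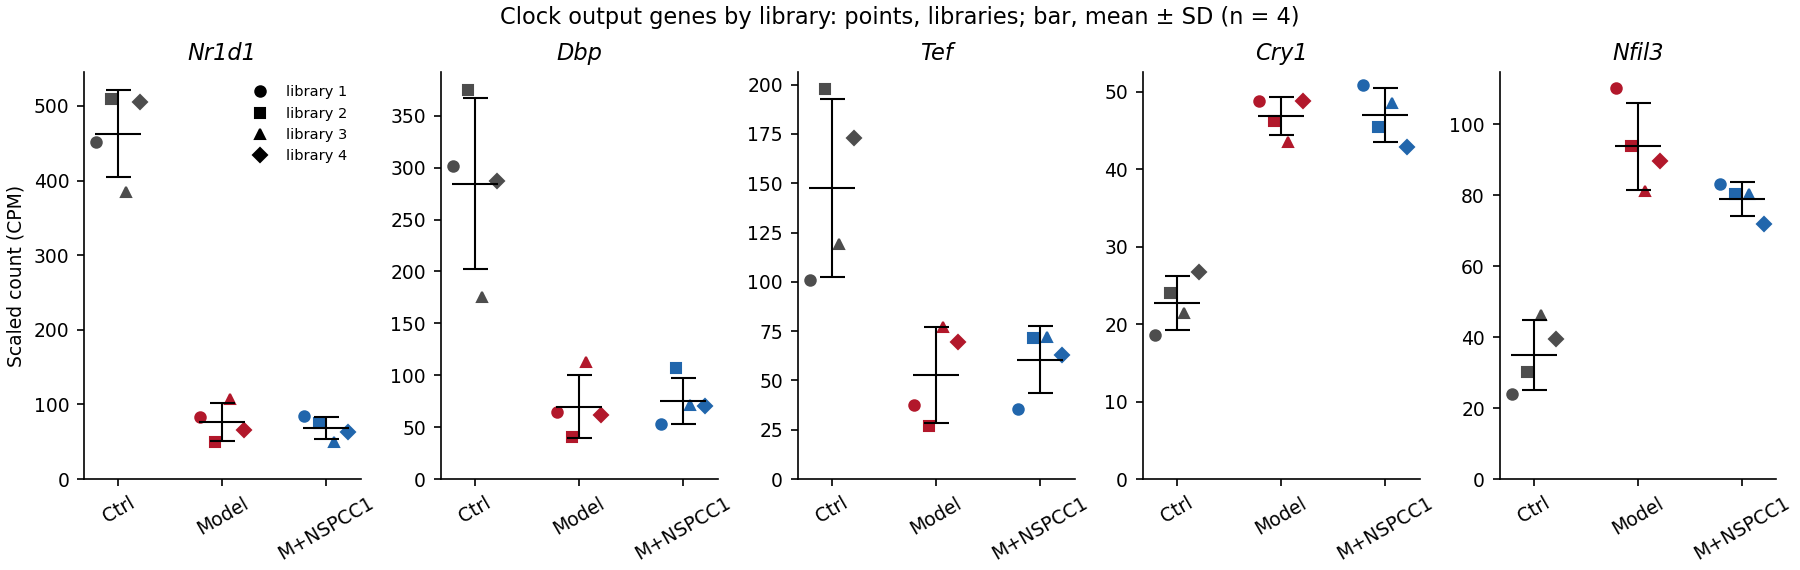
CPM (linear axes from 0) of Nr1d1, Dbp, Tef, Cry1 and Nfil3 in each of the 12 libraries, with 1 symbol per library number and a bar for the group mean ± SD (n = 4). Ctrl stands above the other groups for Nr1d1, Dbp and Tef and below them for Cry1 and Nfil3, and Model and M+NSPCC1 overlap in every panel.

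The scaling moved all genes together. In Model against Ctrl, the median over all 7638 genes was a log2 fold change of 0.25 with TMM factors, 0.08 with size factors from DESeq2 and 0.43 with whole-library depth. Relative to the median with TMM factors, the changes were -2.85 for Nr1d1, -2.28 for Dbp, -1.74 for Tef, 0.79 for Cry1 and 1.16 for Nfil3 on the log2 scale. Their directions were the same under each scaling. Among the log2 fold changes of all tested genes, Nr1d1 lay at percentile 6.65, Dbp at 11.8, Tef at 21.1, Cry1 at 77.5 and Nfil3 at 83.2. Genes with larger changes were thus common in both directions among the genes of these tables, whose selection is not stated.

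**Figure D2:**
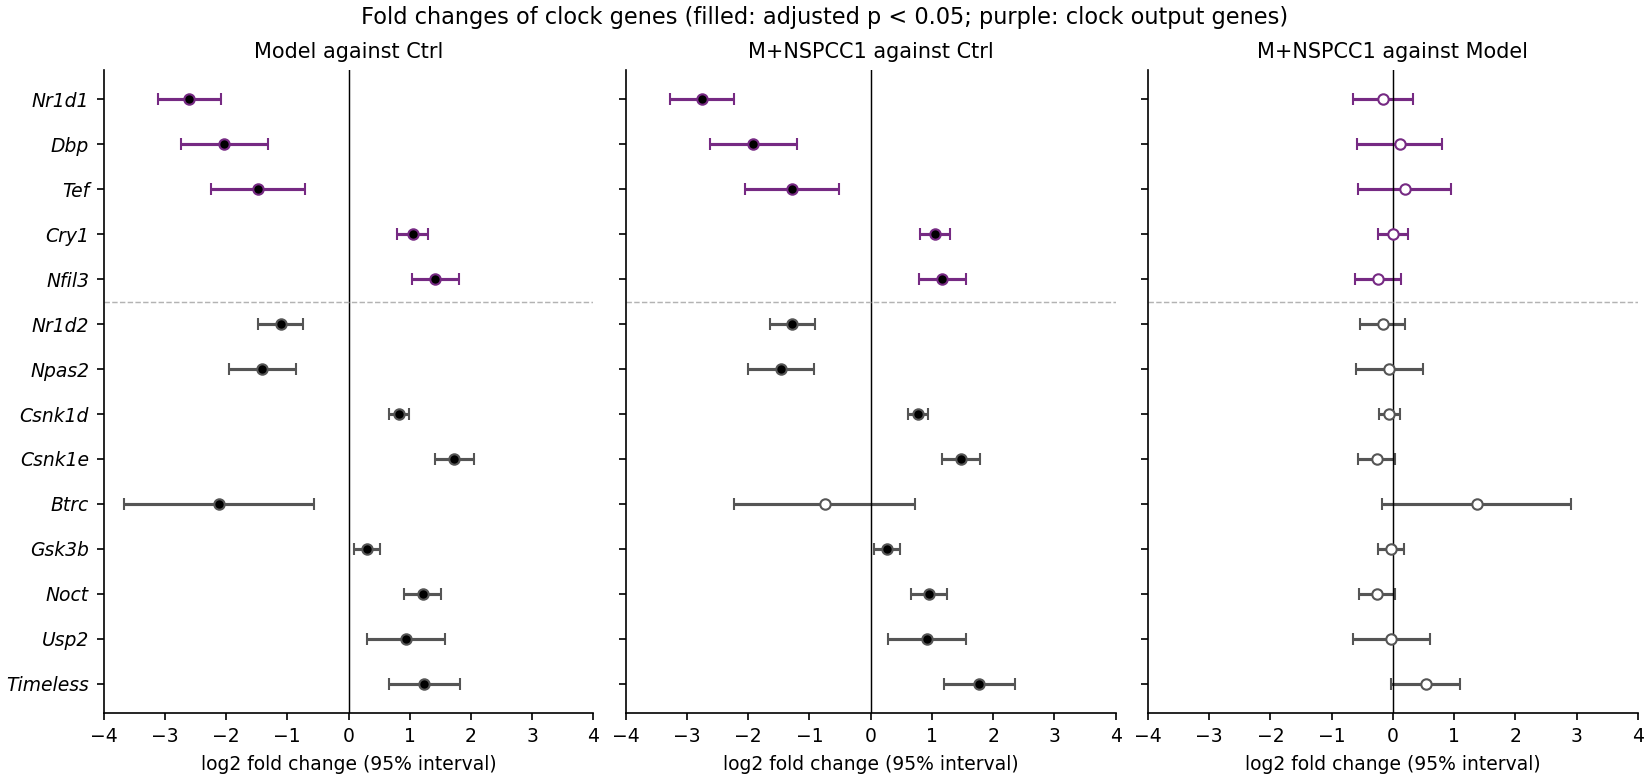
The log2 fold changes of the 5 genes and of the 9 other tested clock genes in the 3 comparisons, with 95% intervals. For the 5 genes the intervals against Ctrl lie on 1 side of 0, from -2.60 for Nr1d1 to 1.42 for Nfil3 in Model against Ctrl, and those of M+NSPCC1 against Model all span 0.

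M+NSPCC1 was set against Model for the effect of the extract on treated skin. With Benjamini-Hochberg adjustment none of the 5 genes passed edgeR's quasi-likelihood test, none had an unadjusted p under 0.05, and DESeq2 called none of them. The background was 0% of 7638 genes called by edgeR (502 at an unadjusted p under 0.05) and 74 genes (0.95%) called by DESeq2. The log2 differences and their 95% intervals were -0.16 (-0.65 to 0.34) for Nr1d1, 0.11 (-0.59 to 0.80) for Dbp and 0.19 (-0.57 to 0.96) for Tef. For Cry1 the interval ran from -0.24 to 0.25 and for Nfil3 from -0.62 to 0.13, around a difference of -0.25. The intervals therefore leave room for differences of up to 0.96 on the log2 scale for Tef but no more than 0.25 for Cry1. The CPM ranges of the 2 groups overlapped for all 5 genes, and 4.19% of all tested genes had ranges that did not (1.3% higher and 2.89% lower in M+NSPCC1).

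M+NSPCC1 was also set against Ctrl, a comparison that shares its controls with Model against Ctrl and is therefore no independent repeat of it. With Benjamini-Hochberg adjustment all 5 genes passed edgeR's quasi-likelihood test, 3 lower and 2 higher, where 93.2% of all tested genes did (43.1% lower and 50.1% higher). Nr1d1 fell by 2.76 on the log2 scale (SE 0.24, adjusted p = 1.29e-06, edgeR), beside a log2 fold change of -2.60 in Model against Ctrl. Dbp fell by 1.92 (SE 0.32, adjusted p = 0.00019, edgeR) and Tef fell by 1.29 (SE 0.35, adjusted p = 0.00439, edgeR). Among the later genes, Cry1 rose by 1.05 (SE 0.11, adjusted p = 7.51e-06, edgeR) and Nfil3 rose by 1.17 (SE 0.18, adjusted p = 7.88e-05, edgeR). The ranges of all 5 genes were apart from those of Ctrl, as for 90% of tested genes (42.5% lower and 47.4% higher).

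To read the genes in terms of phase, the mean log2 CPM of Nr1d1, Dbp and Tef was taken minus that of Cry1 and Nfil3 in each library. The value is read here as a difference between libraries, since CPM does not correct for gene length. It does not give an hour, since collection hours are not known and neither phase nor strength of the rhythm was tested. The early minus later value was 3.49, 3.63, 2.66 and 3.16 in Ctrl libraries 1 to 4, -0.32, -0.80, 0.71 and -0.01 in Model, and -0.26, 0.46, 0.02 and 0.24 in M+NSPCC1. The Ctrl libraries all lay above the others, with Ctrl 3 lowest among them and Model 3 highest among the treated libraries. Since every control was already apart from every treated library for each of the 5 genes, this gap restates the single genes. Group means were 3.23 ± 0.43 in Ctrl, -0.10 ± 0.64 in Model and 0.12 ± 0.31 in M+NSPCC1 (SD, n = 4). Model showed a wider spread than M+NSPCC1, with Model 2 and Model 3 at its ends, and the treated groups overlapped.

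Ratios of FPKM within a library compare gene pairs per length. Dbp over Nfil3, the activator and the repressor of the same element, was 15.7, 15.7, 4.74 and 9.22 in Ctrl, 0.736, 0.558, 1.78 and 0.866 in Model, and 0.81, 1.68, 1.13 and 1.23 in M+NSPCC1. Dbp thus exceeded Nfil3 per length in every control, and in 1 of 4 Model libraries and 3 of 4 M+NSPCC1 libraries. The Model and M+NSPCC1 ranges of this ratio overlapped. Nr1d1 over Cry1 was 26.8, 23.5, 19.7 and 20.9 in Ctrl, 1.88, 1.17, 2.71 and 1.49 in Model, and 1.84, 1.83, 1.14 and 1.64 in M+NSPCC1. Here all 12 libraries stayed above 1. The controls were again apart, which follows from the levels of the single genes. Tef over Nfil3 ran from 1.06 to 2.72 in Ctrl, from 0.116 to 0.401 in Model and from 0.18 to 0.381 in M+NSPCC1.

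The ratios of Dbp to Tef and of Nfil3 to Cry1 moved less. Ratios of Nr1d1 to Dbp or Tef were not taken. Nr1d1 fell more than Tef in Model against Ctrl, with log2 fold changes of -2.60 and -1.48. Dbp over Tef, the sister activators, ran from 4.46 to 9.19 in Ctrl, 2.7 to 5.17 in Model and 2.97 to 4.51 in M+NSPCC1. Nfil3 over Cry1, the later pair, ran from 2.04 to 3.46 in Ctrl, 2.96 to 3.66 in Model and 2.62 to 2.85 in M+NSPCC1. Both pairs overlapped between Ctrl and Model. Nr1d1 and its paralog Nr1d2 (REV-ERB beta) both fell in Model against Ctrl, with log2 fold changes of -2.60 and -1.11, so the sizes differed. Nr1d1 over Nr1d2 was 2.46 to 2.84 in Ctrl, 0.807 to 0.993 in Model and 0.805 to 1.04 in M+NSPCC1, with the controls all apart from the treated libraries.

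**Figure D3:**
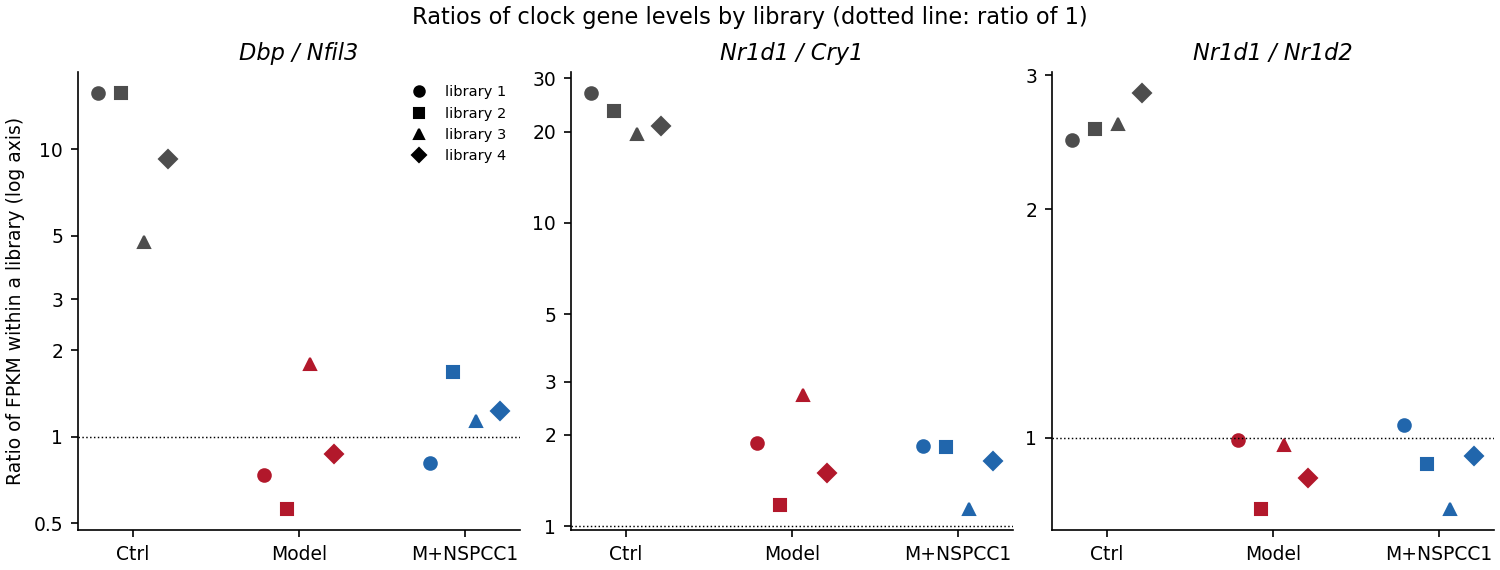
Ratios of FPKM within each library (log axis) for Dbp over Nfil3, Nr1d1 over Cry1 and Nr1d1 over Nr1d2, with 1 symbol per library number and a dotted line at a ratio of 1. Every control lies above every treated library in each panel, and Model 3 has the highest Model value of the first and second ratios.

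The order of levels per length also differed between groups. In Ctrl, Dbp stood first at 112 ± 33.1 FPKM (SD, n = 4), with Nr1d1 at 98.6 ± 13.2, and their ranges overlapped. Tef followed at 19.03 ± 6.03 FPKM, then Nfil3 at 10.9 ± 3.01, which overlapped Tef, and Cry1 was last at 4.38 ± 0.701. In Model, Nfil3 stood first at 33.1 ± 4.997 FPKM and overlapped Dbp at 31.1 ± 12.8, which overlapped Nr1d1 at 18.3 ± 5.60. Cry1 at 10.2 ± 0.809 FPKM came before Tef at 7.70 ± 3.52 in Model, again with overlap. Nfil3, below the 3 early genes in mean level in Ctrl, thus stood level with Dbp at the top in Model. In M+NSPCC1, Dbp at 34.4 ± 10.2 FPKM and Nfil3 at 28.5 ± 1.54 overlapped at the top. Nr1d1 followed at 16.9 ± 3.51 FPKM, apart from Nfil3, and Cry1 at 10.5 ± 0.715 overlapped Tef at 9.25 ± 2.72.

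Libraries within a group varied more for the early genes than for the later ones in Model and M+NSPCC1. In Model the coefficient of variation of CPM was 32.6% for Nr1d1, 43.5% for Dbp and 46.0% for Tef, against 5.35% for Cry1 and 13.0% for Nfil3. In M+NSPCC1 it was 22.01%, 29.8% and 28.2% for the early genes, and 7.47% and 6.10% for Cry1 and Nfil3. In Ctrl the split was absent, with 12.7% for Nr1d1, 29.0% for Dbp, 30.7% for Tef, 15.4% for Cry1 and 28.2% for Nfil3. The median over all genes of at least 10 CPM was 10.3% in Ctrl. No test of the difference in spread was made.

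Covariation among the 5 genes was examined over the 8 Model and M+NSPCC1 libraries, leaving out Ctrl, which would form a cluster of its own. Of 10 pairs, the sister activators Dbp and Tef had the highest correlation of log2 CPM, with Pearson r = 0.82 (exact permutation p = 0.0097, adjusted over 10 pairs 0.097) and Spearman rho = 0.905 (exact permutation p = 0.00456, adjusted 0.0456). Without the 2 libraries farthest from the median Dbp level, Model 2 and Model 3, r was 0.62. With log2(FPKM + 1) neither coefficient passed after adjustment (0.106 and 0.107), so the relation passed only by rank and only on the CPM scale. None of the other 9 pairs passed. Nr1d1 and Dbp had r = 0.57 over the 8 libraries and -0.16 without Model 2 and Model 3, so that value rests on those libraries.

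The skeletal muscle and hair shaft shares were set beside the 5 genes over the 8 treated libraries, relations looked at after the data had been seen, and none of the 10 passed after adjustment. For Nr1d1 and the muscle share r was 0.66 (exact permutation, adjusted p = 0.452 over 10 relations of the 5 genes with the muscle and hair shaft shares) and rho was 0.881 (adjusted p = 0.0724). Without Model 2 and Model 4, r was 0.75, and after each group's mean was removed it was 0.91. For Dbp the muscle share gave r = 0.62, and 0.13 without the same libraries. For Nr1d1 and the hair shaft share r was -0.57 (exact permutation, adjusted p = 0.476) and rho was -0.71 (adjusted p = 0.288), with r = -0.45 without Model 2 and M+NSPCC1 1 and -0.78 after each group's mean was removed. For Dbp the hair shaft share gave r = -0.23, and -0.86 without Model 2 and M+NSPCC1 1. For Tef, Cry1 and Nfil3 the muscle share gave r = 0.30, -0.094 and -0.35, and the hair shaft share gave -0.030, -0.0998 and 0.45. Model 2 had both the lowest muscle share, 0.537%, and the lowest Nr1d1, 49.0 CPM. Model 4 had the next lowest muscle share, 0.646%, with 66.2 CPM of Nr1d1. That was above M+NSPCC1 3, with a share of 1.37% and 50.01 CPM. The part of tissue make-up in the changes of the 5 genes was not tested.

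**Figure D4:**
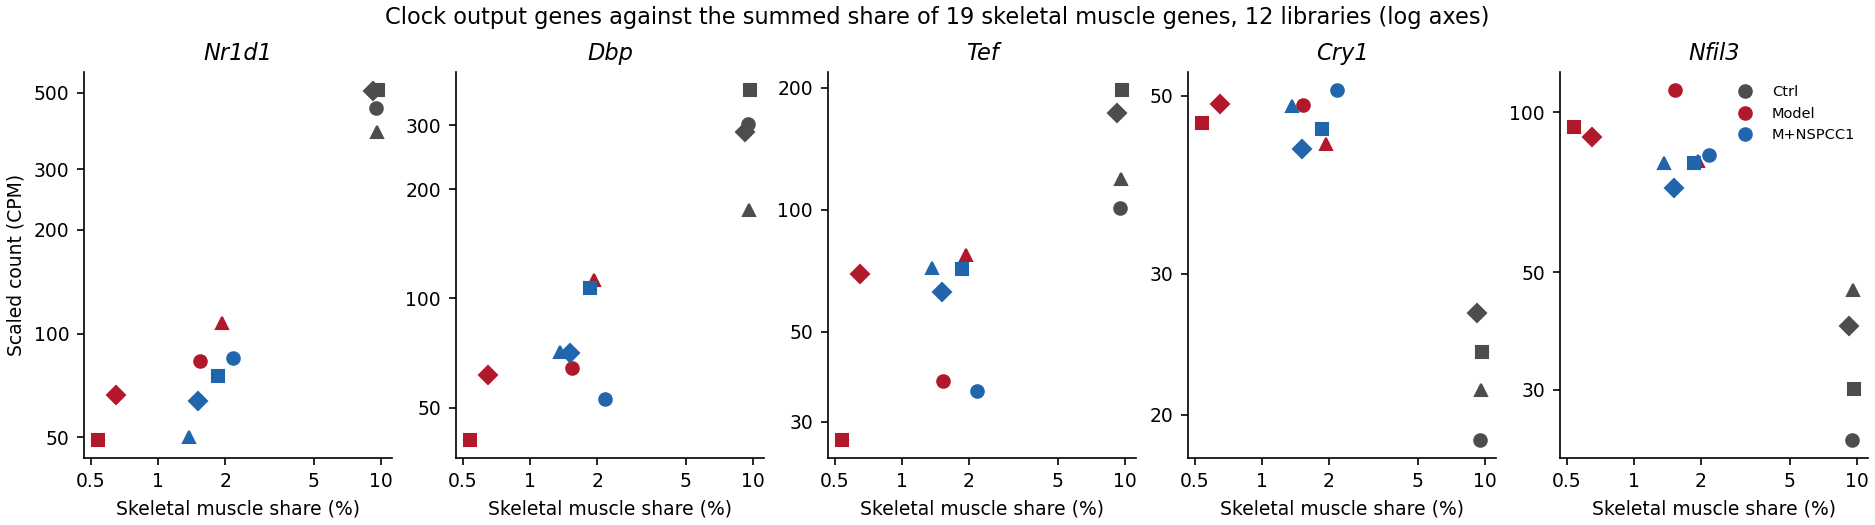
CPM of the clock genes (log axis) against the skeletal muscle share of the summed count (percent, log axis), 1 point per library. The controls lie between 9.25% and 9.74% and the treated libraries from 0.537% to 2.17%, so no library fills the space in the middle.

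The rest of the clock was described from a list of 29 other clock genes, of which 11 were in the tables and 9 were tested. In Model against Ctrl 6 rose and 3 fell by the edgeR test at an adjusted p under 0.05, with a median log2 fold change of 0.82 beside 0.25 for all tested genes. Of all tested genes 90.5% were called (49.1% higher and 41.4% lower), so 9 of 9 is near the background and is not a result about these genes. Nr1d2 fell from 314 ± 38.5 to 145 ± 36.3 CPM (SD, n = 4), a log2 fold change of -1.11, less than the -2.60 of Nr1d1. Npas2, which can stand in for CLOCK, fell by 1.41 on the log2 scale. Btrc, a ubiquitin ligase subunit that acts on PER proteins, fell by 2.12 with Model 2 listed at 0, and by 1.67 without that library. Npas2 and Btrc are low genes, at 5.54 and 8.85 CPM in Ctrl.

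Kinases and outputs of the clock were among those that rose. Csnk1e, the casein kinase 1 epsilon gene whose product phosphorylates PER proteins, went from 41.8 to 139 CPM, a log2 fold change of 1.73. Its relative Csnk1d rose by 0.82 and Gsk3b, another kinase of clock proteins, by 0.30, a call that was lost with size factors from DESeq2 (log2 fold change 0.13, edgeR adjusted p = 0.24). Noct, a rhythmic output gene also called nocturnin, went from 39.6 to 91.4 CPM, a log2 fold change of 1.21. Usp2, a rhythmic deubiquitinase gene, rose by 0.94, although its Ctrl and Model ranges overlapped. Timeless, which also acts in DNA replication, rose by 1.24, and cell division markers (6 of 6) took 0.0176% to 0.0226% of the summed count in Ctrl and 0.086% to 0.168% in Model, whose part in this was not tested. With DESeq2 8 of the 9 genes were called, and 84% of all genes.

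In M+NSPCC1 against Ctrl, with the same controls, 6 of the 9 rose, 2 fell and Btrc did not pass (log2 fold change -0.75), though without Model 2, which shares its estimate of spread, it passed in edgeR (-0.71, adjusted p = 0.0338). The edgeR background was 93.2% of all tested genes (50.1% higher and 43.1% lower), so 8 of 9 is near it too. Gsk3b did not pass there with size factors from DESeq2 or without Ctrl 3, Ctrl 4 or M+NSPCC1 1 (log2 fold changes of 0.11, 0.19, 0.24 and 0.24). DESeq2 called 7 of the 9 and 87.2% of all genes. In M+NSPCC1 against Model the edgeR test, with adjustment, called none of the 9, none had an unadjusted p under 0.05, and DESeq2 called none. The CPM ranges of M+NSPCC1 and Model were apart for 1 of the 9, Btrc, at 5.26 ± 2.21 and 2.04 ± 1.36 CPM (SD, n = 4), where 4.19% of all tested genes had ranges apart. Clock and Per1 did not pass the filter on low counts. Clock is listed at 0 in 9 of 12 libraries. Per1 is listed at 0 in all 4 Ctrl and all 4 Model libraries and in M+NSPCC1 3, and at 102, 104 and 81.8 estimated counts in the other 3 M+NSPCC1 libraries. A value of 0 from estimated counts can be a failed estimate, and no fold change of either gene is given here. Without the filter, both genes entered the DESeq2 test and an alternative edgeR fit. In M+NSPCC1 against Ctrl these called 9 and 10 of 11 clock genes. The same runs called 87.2% of all genes (DESeq2) and 7276 of 7894 (edgeR). In Model against Ctrl they called 8 and 9 of the 11, and in M+NSPCC1 against Model 0. Calls of Clock or Per1 rest on such listed zeros. The other 18 listed genes, including Arntl (BMAL1), Per2, Per3, Cry2 and Hlf, were not analysed here. Of 7 glucocorticoid response genes, listed because the hormone also follows the day, only Tsc22d3 was tested. Tsc22d3 fell by 1.41 in Model against Ctrl and by 1.42 in M+NSPCC1 against Ctrl on the log2 scale.

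The genes with the most similar patterns over the 12 libraries were named by Pearson r of log2 CPM among 6274 other genes, as a description without a test. All 12 libraries contain the distance of Ctrl from the rest, so high values are common: 1922 genes had r above 0.9 with Nr1d1, 1452 with Dbp, 1684 with Cry1, 1072 with Nfil3 and 85 with Tef. The nearest were Mief2 and Fhl1 to Nr1d1 (both 0.995), Ralgapa2 (0.985) and Pcmtd1 (0.984) to Dbp, and Smim1 (0.944) and Ubl3 (0.941) to Tef. Large2 (0.992) and Pole2 (0.987) were nearest to Cry1, and Mdfi and Elp6 (both 0.981) to Nfil3. With each group's mean removed, 84 genes had r above 0.9 with Nr1d1, 10 with Dbp, 2 with Nfil3 and 1 each with Tef and Cry1. The nearest were then 2310061I04Rik (0.965) and Hspb2 (0.959) to Nr1d1, C030006K11Rik (0.945) and Syt15 (0.937) to Dbp, and Cmtm4 (0.903) and Hoxc5 (0.874) to Tef. Fam220a (0.911) and Lonrf3 (0.897) were nearest to Cry1, and Mdfi (0.921) and Ptges3 (0.907) to Nfil3. Mdfi was the only gene that ranked among the nearest 2 on both measures for the same clock gene.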

How the data were processed

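Total RNA from mouse skin was made into messenger RNA libraries, per the labels' protocols, and the 12 libraries were grouped by title. The authors deposited estimated counts and FPKM values per transcript, and HISAT2 2.2.1, RSEM 1.3.1, DESeq2 1.34.0 and mm10 appear in the submitters' processing notes without their roles. The deposited estimated counts were not whole in 69.5% of genes (tolerance 0.011 per transcript). The 10720 transcripts were summed to 7902 genes by gene ID, of which 7881 matched RefSeq, and sums were rounded. A spreadsheet had turned 14 symbols into dates, restored from gene IDs. The sources used here do not say how transcripts were selected for the tables. FPKM served for ratios and levels between genes.

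All 12 libraries were fitted with edgeR 4.0.16 in R 4.3.3 (quasi-likelihood, TMM factors, default expression filter, 1 coefficient per group, no covariate), with Benjamini-Hochberg adjustment over 7638 genes and a threshold of 0.05. The log2 CPM values of libraries used a prior count of 2. Alternatives were DESeq2 1.42.0 and its size factors, whole-library depth, other filters, limma 3.58.1 on log2(FPKM + 1) or log2(FPKM + 0.1), the replicate block, 8 libraries only and each library left out, and transcripts in place of genes, added after seeing the data. The fit was tested on simulated data. The 5 genes, the lists and the rule for named genes (the 5 genes, tested genes of the clock and glucocorticoid lists, and the 2 genes nearest each by r) were chosen with earlier results of these data known. Lists of fibroblast, fat, endothelial and immune markers were also summed. Promoters came from RefSeq. A listed gene is not reported here and was taken out of the clock list.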

Additional observations from a re-analysis of the deposited data

Results flagged for a closer look

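Of 48 sets of 4 libraries examined, 1 held a library far from its group, where chance gives about 1 in 20. Btrc, a ubiquitin ligase subunit, was listed at 0.0 CPM in Model 2 and between 2.52 and 2.88 CPM in the other 3 Model libraries, and the gap took 0.875 of the range, above Dixon's 95% critical value.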

How the results depend on the processing

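In both comparisons with Ctrl, each of the 5 genes kept its direction and passed under all alternatives run (22 to 25 per gene). In Model against Ctrl the log2 fold change ran from -2.81 to -2.40 for Nr1d1, -2.58 to -1.73 for Dbp, -1.72 to -1.23 for Tef, 0.87 to 1.22 for Cry1 and 1.25 to 1.62 for Nfil3. In M+NSPCC1 against Model none of the 5 passed under any alternative, and small differences changed sign for all but Nfil3. With 1 library left out they ran from -0.32 to 0.052 for Nr1d1, -0.10 to 0.44 for Dbp, -0.016 to 0.43 for Tef and -0.038 to 0.044 for Cry1. Single transcripts gave -0.083 (Dbp, longest), -0.19 (Dbp, shortest) and -0.40 (Tef, longer). Genes called in that comparison numbered 0 in all, 74 with DESeq2 (16 higher, 58 lower), 2 with only the 8 libraries, 2 with limma on log2(FPKM + 1) unfiltered, and 0 to 4 with a library left out (2 without Model 3, 4 without M+NSPCC1 1). The cause was not tested. The correlation of Nr1d1 with Nfil3 was 0.047 with log2 CPM and -0.066 with log2(FPKM + 1). Replicate numbers did not pair the samples: r of deviations over 12 same-numbered pairs ran from -0.16 to 0.12, 1 of them above 0.1, and 7 of 24 best matches had their own number. With the replicate block 6823 genes were called in Model against Ctrl, 0 in M+NSPCC1 against Model and 7027 in M+NSPCC1 against Ctrl, beside 6913, 0 and 7117 without it. The lowest estimated count of the 5 genes in any library was 168, of Cry1.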

Other observations

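Other cell type markers moved with the same split of Ctrl from the rest, as shares of the summed count. Fibroblast markers (3 of 6 in the tables) took 0.888% to 1.1% in Ctrl, 0.334% to 0.884% in Model and 0.509% to 0.649% in M+NSPCC1. Adipocyte markers (3 of 7) took 0.323% to 0.426%, 0.095% to 0.232% and 0.11% to 0.252% in the same order. Endothelial markers (4 of 4) took 0.058% to 0.0669% in Ctrl, 0.0114% to 0.0319% in Model and 0.0172% to 0.0213% in M+NSPCC1. Immune cell markers (5 of 6) took 0.217% to 0.334%, 0.0437% to 0.132% and 0.0561% to 0.0926%. The part of these shares in the levels of the clock genes was not tested.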
